A study of Homo sapiens with 2 samples.

Results

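The 6 genes CDKN1B, GPR19, HBP1, CDKN1A, CCNG2 and RBL2 were described here by the FLAG peaks called around them in U87MG cells. The members are the peaks whose summit lay in any of 5 windows of hg19, which were chosen by the peaks that an earlier reading of this list had shown and by the known roles of the genes. They number 7 of the 9717 peaks in the list. The windows ran on chromosome 12 from 12803000 to 12886000 for GPR19 and CDKN1B together, on chromosome 7 from 106799000 to 106853000 for HBP1, on chromosome 6 from 36634000 to 36666000 for CDKN1A, on chromosome 4 from 78068000 to 78102000 for CCNG2 and on chromosome 16 from 53458000 to 53536000 for RBL2. The first held 4 peaks, HBP1 held 2 and RBL2 held 1, while CDKN1A and CCNG2 held 0. Presence, fold and position of these peaks chose the members, so the values below describe them and were not tested.

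The series addressed where FOXO3 binds in U87MG, a human glioblastoma line, by CETCh-seq, in which genome editing adds an epitope to the endogenous factor and an antibody to the epitope pulls down its chromatin. Its 2 libraries, FLAG and input, both carry the labels WT and LY294002, the latter a drug that blocks phosphoinositide 3-kinase. No label gives a time or dose of the drug or says whether the edited cells were 1 clone or a pool. With 1 FLAG library and no untreated or untagged FLAG library analysed here, no difference between conditions could be measured.

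FOXO3 is a forkhead transcription factor that AKT phosphorylates and holds in the cytoplasm when phosphoinositide 3-kinase is active. Inhibitors of the kinase let it enter the nucleus, where it is known for raising genes that stop the cell cycle. CDKN1B encodes p27, an inhibitor of cyclin E-CDK2 complexes, and CDKN1A encodes p21, its relative and a target of p53. HBP1 is an HMG-box repressor of proliferation genes, CCNG2 encodes the unconventional cyclin G2, which restrains growth, and RBL2 encodes p130, a pocket protein of the DREAM complex in resting cells. GPR19 encodes an orphan G protein-coupled receptor and is not known as a cell cycle brake. In the GRCh38 RefSeq gene table it is the direct neighbour of CDKN1B, and the next protein-coding genes are CREBL2 beyond GPR19 and APOLD1 beyond CDKN1B.

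The 4 member promoters that hold a forkhead match are shown, so that the letters can be read, with that of CCNG2, a gene without a peak, as 1 of the 3 that hold none; this choice was made after the sequences had been seen. They are from RefSeq in the GRCh38.p14 build, on the plus strand, and hold 250 bases before the annotated start and 10 bases after it. Promoters of 5 of the 6 genes matched by symbol, 7 in all, and GPR19 was not matched. Capitals mark the forkhead core TGTTTAC, or its first 6 letters TGTTTA where the last base differs, each on either strand (reverse complements GTAAACA and TAAACA). Every match to the longer motif is also a match to the shorter one. The longer motif occurred in 3.42% and the shorter in 12.3% of the 35116 RefSeq promoters of 300 bases. The shorter motif was also added at that point.
HBP1 (first promoter), chr7:107168753-107169012: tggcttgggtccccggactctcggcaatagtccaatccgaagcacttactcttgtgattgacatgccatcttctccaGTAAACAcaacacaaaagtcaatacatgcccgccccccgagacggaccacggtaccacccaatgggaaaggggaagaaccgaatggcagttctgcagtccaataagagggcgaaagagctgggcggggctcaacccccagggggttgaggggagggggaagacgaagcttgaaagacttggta
CDKN1B, chr12:12717118-12717377: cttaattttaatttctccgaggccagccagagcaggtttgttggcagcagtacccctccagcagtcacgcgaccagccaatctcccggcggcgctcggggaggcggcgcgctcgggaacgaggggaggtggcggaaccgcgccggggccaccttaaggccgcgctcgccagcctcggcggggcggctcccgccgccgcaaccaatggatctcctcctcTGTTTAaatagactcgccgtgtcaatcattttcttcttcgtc
RBL2 (first promoter), chr16:53434221-53434480: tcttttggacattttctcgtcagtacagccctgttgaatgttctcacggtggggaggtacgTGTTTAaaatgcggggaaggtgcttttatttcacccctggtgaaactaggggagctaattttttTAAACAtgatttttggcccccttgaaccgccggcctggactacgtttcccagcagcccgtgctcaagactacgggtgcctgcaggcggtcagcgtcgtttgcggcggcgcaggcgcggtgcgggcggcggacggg
RBL2 (second promoter), chr16:53435369-53435628: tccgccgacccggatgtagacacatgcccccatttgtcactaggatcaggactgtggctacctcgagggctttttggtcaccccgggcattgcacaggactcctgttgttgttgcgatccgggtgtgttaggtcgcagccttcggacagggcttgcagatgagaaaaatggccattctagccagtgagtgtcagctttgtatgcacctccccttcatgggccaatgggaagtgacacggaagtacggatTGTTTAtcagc
CCNG2, chr4:77156957-77157216: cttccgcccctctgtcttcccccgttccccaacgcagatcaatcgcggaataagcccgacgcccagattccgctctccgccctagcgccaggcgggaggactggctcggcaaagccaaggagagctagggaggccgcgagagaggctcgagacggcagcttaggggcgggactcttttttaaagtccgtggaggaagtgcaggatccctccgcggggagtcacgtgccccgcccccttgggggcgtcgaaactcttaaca

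In the full 300 bases, the longer motif was found in 1 of the 7 promoters, the first of HBP1, from 173 to 167 bp before the annotated start and on the minus strand. The shorter motif was found in 4 of the 7, which belong to the 3 genes HBP1, CDKN1B and RBL2. Over all RefSeq promoters the shares were 3.42% for the longer and 12.3% for the shorter. The shorter motif was added after the sequences had been seen, so nothing follows from its count. This shorter motif lay from 32 to 27 bp before the start of CDKN1B. The first RBL2 promoter held it in both orientations, from 189 to 184 bp and from 125 to 120 bp before the start, and in the second RBL2 promoter it began 1 bp before the start. Neither motif was found in these windows of CDKN1A, CCNG2 or the second HBP1 promoter. HBP1 and RBL2 have 2 annotated starts each, which lie 921 and 1148 bp apart. The peaks are in hg19 and these letters are in GRCh38, so no motif was placed inside a peak, and a match describes letters only.

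HBP1 held the strongest peak of the 7, and it covered the 5' end of the gene. It ran on chromosome 7 from 106808761 to 106809484 (hg19), 724 bp, with its summit at 106809088. The HBP1 5' end used here is at 106809406 on the plus strand, so the summit lay 318 bp upstream and the peak spanned 645 bp upstream to 78 bp downstream. The authors' fold enrichment, the ChIP pileup at the summit plus 1 tag over the caller's background plus 1 tag, was 20.9. It rested on 198 ChIP tags over a background of 8.52 tags, and its exact 95% Poisson interval ran from 18.1 to 24.0. This interval, like those of the other folds, covers counting error of the ChIP pileup only and takes the background as fixed. By fold this peak ranked 7 of 9717. Its −log10 q, the caller's significance corrected over the genome, was 185.

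A second HBP1 peak followed downstream of the 5' end used here and was far weaker. HBP1 has 2 annotated starts 921 bp apart in GRCh38, and the place of this peak relative to the later one was not measured. The peak ran from 106810119 to 106810446, 328 bp, and its summit at 106810193 lay 787 bp downstream of the 5' end. Its 33 tags over a background of 9.31 gave a fold of 3.30 (2.30 to 4.59). The 2 summits were 1105 bp apart and 634 bp without a call separated the intervals, so the caller listed them as separate peaks. At the first summit the pileup was 6.0 times that at the second. Few peaks in the list have so close a neighbour: 4.97% of all peaks had another summit within this distance.

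On chromosome 12 the strong peak stood at the start of GPR19, not at the start of CDKN1B. It ran from 12849337 to 12850018, 682 bp, with its summit at 12849652. The GPR19 5' end used here is at 12849141 on the minus strand, and the CDKN1B 5' end is at 12870302 on the plus strand, so the genes point away from each other and their ends lie 21161 bp apart. The summit lay 511 bp upstream of GPR19 and 20650 bp upstream of CDKN1B. The interval began 196 bp before the GPR19 5' end and reached 877 bp before it, so that it lay wholly between the starts of both genes. The fold was 19.1 (16.2 to 22.2), from 160 tags over a background of 7.45, and it ranked 9 of 9717 with a −log10 q of 144. Other GPR19 models can start elsewhere: in the GRCh38 table its record reaches close to the start of CDKN1B.

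The peaks nearest the CDKN1B start were weak. The closest ran from 12871697 to 12871991, 295 bp, with its summit at 12871884, which is 1582 bp downstream of the 5' end. It had 28 tags over 7.68, a fold of 3.34 (2.26 to 4.78). The next ran from 12878392 to 12878778, 387 bp, with its summit at 12878648, 8346 bp downstream. Its 30 tags over 8.80 gave a fold of 3.16 (2.17 to 4.47), the lowest of the 7. These summits were 6764 bp apart, and both folds lay below the median of 3.88 over all peaks. No summit was called within 1 kb of the CDKN1B 5' end. No hg19 end of CDKN1B was used here, so whether the summits at 1582 and 8346 bp lie within the gene was not measured.

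The fourth peak of this window lay on the far side of the GPR19 5' end from CDKN1B. It ran from 12825024 to 12825371, 348 bp, with its summit at 12825138. The summit was 24003 bp downstream of the GPR19 5' end and 45164 bp upstream of CDKN1B. No hg19 end of GPR19 was used here, so whether the peak lies within the gene was not measured. With 37 tags over 7.45 its fold was 4.50 (3.20 to 6.16) and its −log10 q 10.8. The caller's background was the same 7.45 tags here as at the strong peak, and the pileup at the strong peak was 4.32 times as high. The interval of the strong peak lay above those of the other peaks in its window, whereas the intervals of the other 3 overlapped one another.

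**Figure D1:**
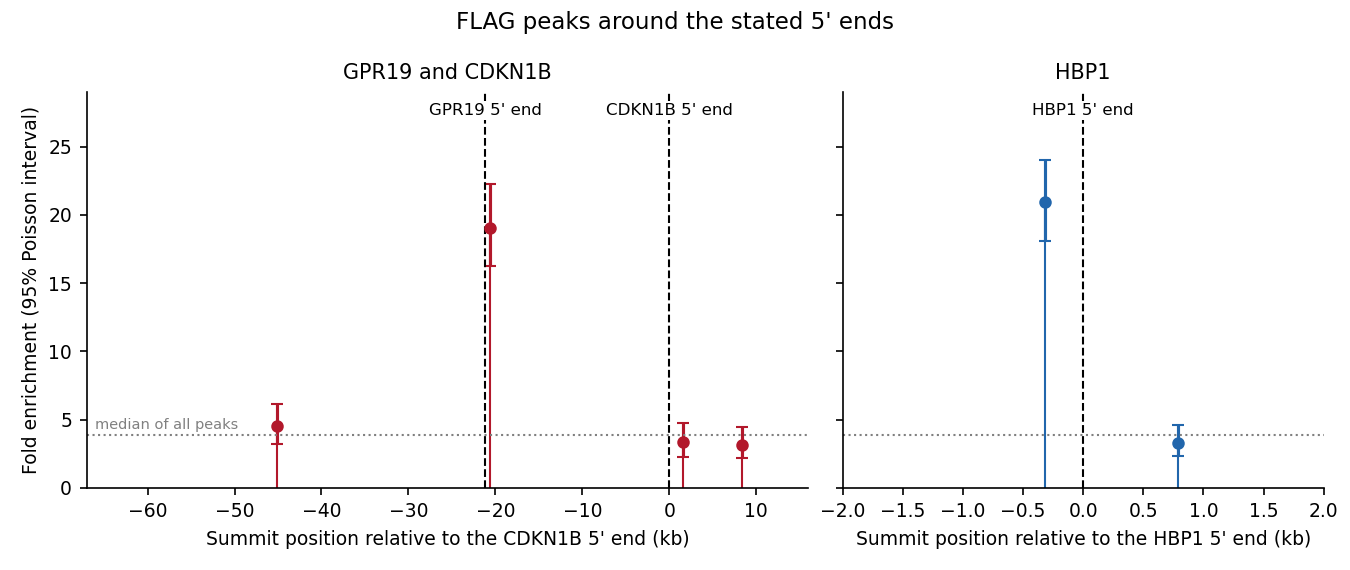
Fold enrichment of each FLAG peak (points, with 95% Poisson intervals) by the distance of its summit from the 5' end of CDKN1B (left) or HBP1 (right), in kb; dashed lines are 5' ends and the dotted line is the median of all peaks, 3.88. The peaks at 19.1 and 20.9 stand upstream of the GPR19 and HBP1 5' ends, and the others lie between 3.16 and 4.50.

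RBL2 held 1 peak of intermediate strength. It ran on chromosome 16 from 53469136 to 53469680, 545 bp, with its summit at 53469469. Its 46 tags over a background of 6.42 gave a fold of 6.33 (4.67 to 8.40) and a −log10 q of 19.9. It ranked 1044 of 9717, so 10.7% of all peaks had a fold as high or higher. The folds at HBP1 and GPR19 were 3.30 and 3.01 times as high, and their intervals did not overlap that of RBL2. No 5' end of RBL2 in hg19 was used here, so its distance to the start was not measured.

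CDKN1A and CCNG2 had no called peak in windows of 32 and 34 kb. The CCNG2 5' end, at 78078357 on chromosome 4, had its nearest summit 292 kb downstream, at 78370558 with a fold of 5.35 (3.56 to 7.74). On the other side the nearest summit was at 77545593, with a fold of 3.72 (2.50 to 5.36). The stretch without a summit that spans CCNG2 was 825 kb long, and 8.12% of all distances between neighbouring summits were as long. The stretch that spans the CDKN1A window was 400 kb long, which 19.2% of the distances reached.

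A peak stood just outside the CDKN1A window. Its summit at 36627270 was 6.73 kb before the window, and its 20 tags over the genome-wide background of 3.65 gave a fold of 4.51 (2.84 to 6.86). The GPR19 and CDKN1B window likewise had a weak neighbour 4.03 kb beyond its CDKN1B edge, with its summit at 12890032. Its fold of 3.19 (2.15 to 4.56) was like those of the peaks inside the window downstream of the CDKN1B 5' end. On the GPR19 side the first summit outside was 38.2 kb away at 12764841, and its fold was 10.1 (8.41 to 12.0) from 122 tags over 11.2. Around HBP1 the nearest other summits were 320 kb and 574 kb from its peaks, with folds of 3.83 and 13.0. The RBL2 peak had its nearest neighbours 1674 kb and 260 kb away. HBP1 and RBL2 thus carried their peaks in stretches that were otherwise without calls, and the peaks of the GPR19 and CDKN1B window had others close by.

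**Figure D2:**
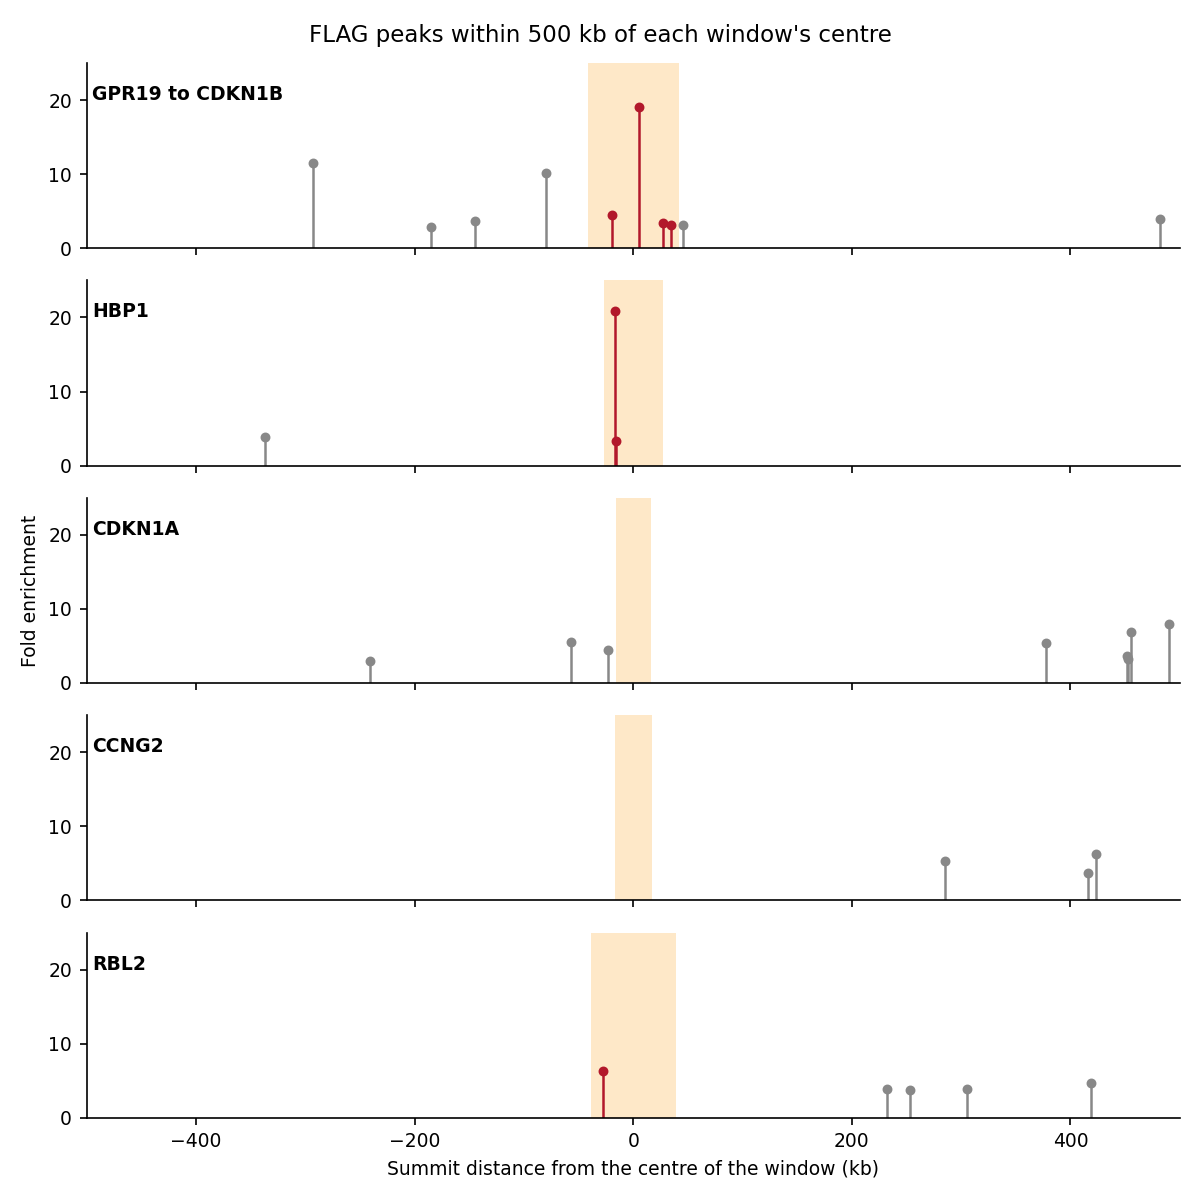
Fold enrichment of every FLAG peak within 500 kb of the centre of each window (shaded), by the distance of its summit from that centre in kb; red marks peaks inside a window and grey those outside. Within this radius 10 peaks were called around GPR19 and CDKN1B, 3 around HBP1, 8 around CDKN1A, 3 around CCNG2 and 5 around RBL2, and the shaded windows of CDKN1A and CCNG2 are empty.

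An empty window has a limit set by depth. The smallest −log10 p in the list was 4.16. Over the genome-wide background of 3.65 tags, 13 tags reach that value, which is a fold of 3.01. Over the median background of 5.59 it takes 17 tags, a fold of 2.73, and over 9.31, the highest of the 7 member peaks, 23 tags, a fold of 2.33. A site at CDKN1A or CCNG2 below the limit set by its own background would not have been listed at this depth. The local background of the empty windows was not measured, so the fold that this limit stands for there is not known.

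The 7 member peaks fell into a strong pair and 5 others. A fold of 10 or more was reached by 2 of the 7, at HBP1 and GPR19, where 2.26% of all peaks reached it. At a −log10 q of 10 or more, RBL2 and the peak 24003 bp downstream of the GPR19 5' end joined them. That made 4 of the 7, against 25.5% of all peaks. The members were chosen on this measure, so nothing follows from these shares. The strong pair held 9.0 and 8.0 times the tags that their backgrounds required for a call. The RBL2 peak held 2.56 times and the peak 24003 bp downstream of the GPR19 5' end 1.85 times as many. The second HBP1 peak and the peaks 1582 and 8346 bp downstream of the CDKN1B 5' end held 1.43, 1.40 and 1.36 times as many. These 3 were thus the nearest to the limit of calling.

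**Figure D3:**
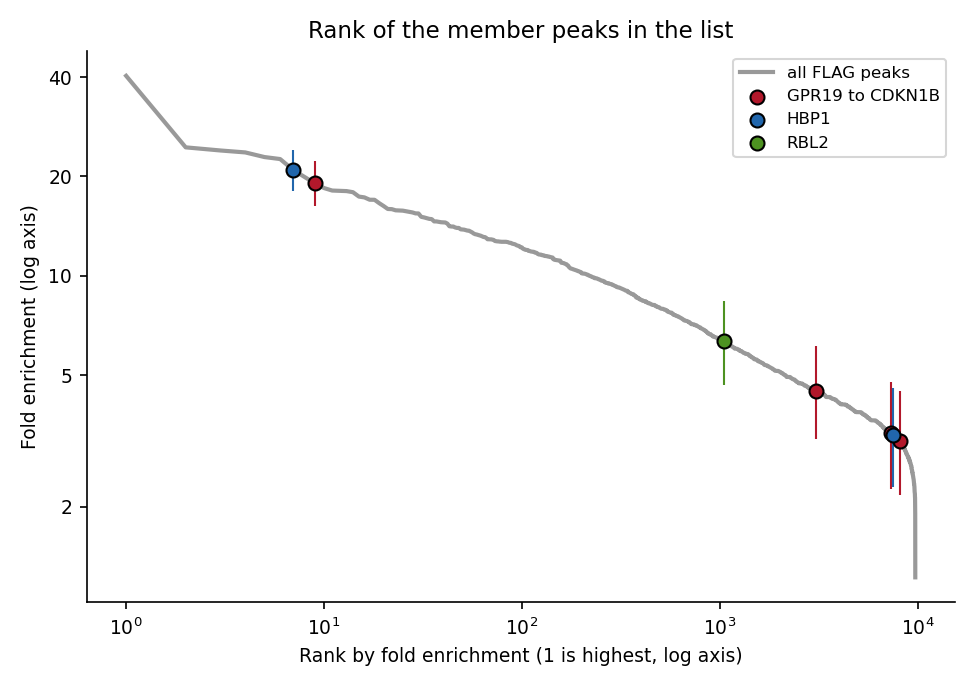
Fold enrichment of all 9717 FLAG peaks by rank (both axes log), with the 7 member peaks as points and their 95% Poisson intervals as vertical lines. The HBP1 and GPR19 peaks stand at ranks 7 and 9, RBL2 at 1044, and 3 of the others between 7363 and 8126.

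The strong peaks at HBP1 and GPR19 had similar folds and similar distances to a 5' end. Their folds differed by a ratio of 1.10, within their overlapping counting intervals. Both summits lay upstream of a 5' end, by 318 and 511 bp, and both peaks were wide. Among the 220 peaks with a fold of 10 or more, whose median width was 570 bp, 30 were at least as wide as the HBP1 peak and 45 as the GPR19 peak. At least as many tags as at HBP1 were held by 16 of these 220, and as at GPR19 by 36. Since 1 pileup gives fold, width and q, these are not separate measurements. The summit of the HBP1 peak was 327 bp from its left edge and that of the GPR19 peak 315 bp, near the middle of each interval.

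The background that the caller used was above its genome-wide level at all 7 peaks. The background used is the highest of several estimates at the summit. It ran from 6.42 tags at RBL2 to 9.31 at the second HBP1 peak, which is 1.76 to 2.55 times the genome-wide 3.65. All 7 lay above the median background of 5.59, as did 4825 of the 9717 peaks, and none was at the genome-wide level, where 19.1% of all peaks were. At RBL2 and the first HBP1 peak the background equalled 46 and 61 control tags in 1 kb, where the genome-wide level is 26.1. At the peaks 1582 and 8346 bp downstream of the CDKN1B 5' end it equalled 55 and 63. The same values could also stand for counts in a 10 kb window. At the other 3 it equalled 8, 8 and 10 control tags at the summit itself, small counts whose error the intervals of fold leave out. A higher background lowers the fold, and its part in the folds was not tested.

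**Figure D4:**
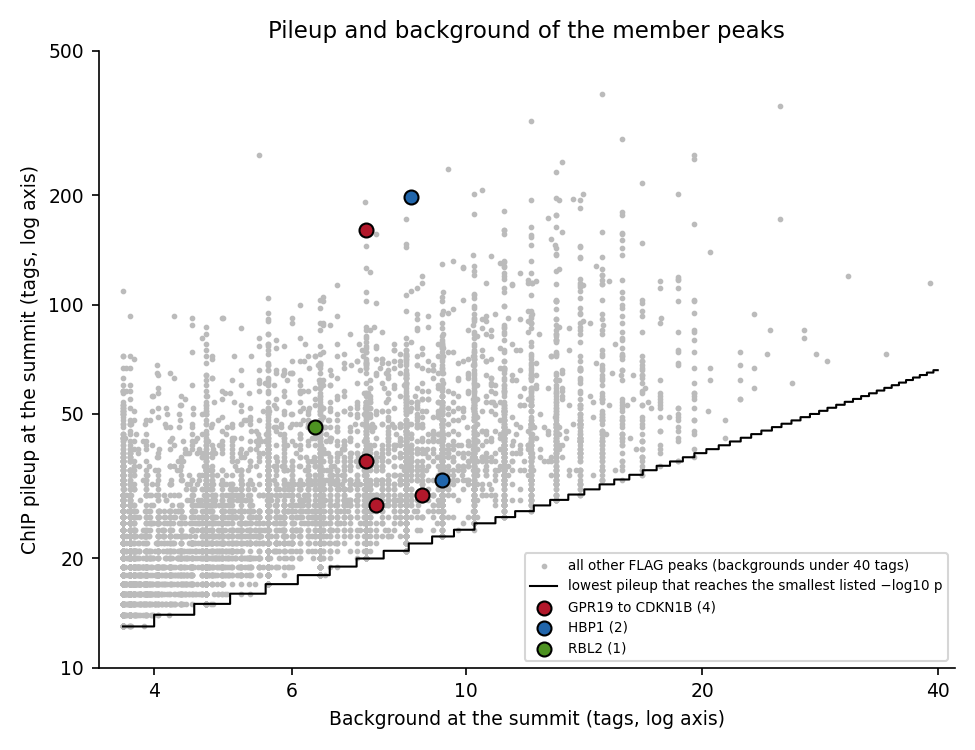
ChIP pileup against background at the summit, both in tags on log axes, for the FLAG peaks with backgrounds under 40 tags (grey) and the 7 member peaks (coloured); the black steps are the lowest pileup that reaches the smallest −log10 p of the list. HBP1 with 198 tags and GPR19 with 160 stand far above the steps. The weaker HBP1 peak and the peaks downstream of the CDKN1B 5' end, with 28 to 33 tags, lie a little above them.

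Other genes of the pathway could be looked at by promoter letters only, since no hg19 gene positions were used for them. The list held 40 genes, of which 33 were matched by symbol to a RefSeq promoter. It covered inhibitors of cyclin-dependent kinases, pocket proteins, the DREAM complex, antiproliferative genes, cyclins and kinases, and the ligase that marks p27 for degradation. The longer motif was present in 3 of the 33, which were BTG1, an antiproliferative gene, MXI1, an antagonist of MYC, and CCND3, which encodes cyclin D3. Over all genes with a RefSeq promoter the share was 4.19%. The shorter motif was present in 6 of the 33, the same 3 genes with CDKN2C, DYRK1A and TOB1, against 14.7% of all genes. A gene counted if any of its promoters held the motif. The 33 genes had 57 promoters, where all 27305 genes had 35116, so the listed genes had more promoters each and more room for a match. By promoter, the shares over all RefSeq promoters were 3.42% and 12.3%. No excess was tested, and these counts say nothing of FLAG peaks at the genes.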

How the data were processed

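Per the labels, each library came from U87MG cells treated with LY294002, fixed in 1% formaldehyde for 10 min, and was either FLAG chromatin or input. The submitters' processing notes name Trimmomatic, HISAT2, MACS2 and the build hg19, with versions, roles, peak threshold and control library not given in the sources used here. In the deposited narrowPeak list the authors give each peak a fold, which is a ratio of pileup to background, a −log10 p and a −log10 q at the summit, and a score, 10 times that −log10 q without its decimals. Positions are printed counting from 1.

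Pileup and background were solved from the authors' fold and p-value, as (pileup + 1)/(background + 1) and an upper Poisson tail. The pairs gave back the −log10 p with errors of at most 5.0e-04 (rounded). This step was tested on simulated data. Intervals are exact 95% Poisson intervals of the pileup. Of the backgrounds above the genome-wide level and under 20 tags, 53.8% were whole multiples of 0.931 tags (tolerance 2e-04), which is 1 control tag at the summit, and the rest (100%) were multiples of the step of a 10 kb window with tags of 150 bp. Of that rest, 62.5% were multiples of the step of a 1 kb window. The depth these values imply was 24.3 ChIP tags and 26.1 control tags for each kb of the genome size set in the caller.

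All members are named, as are the pathway genes whose promoters hold a motif, which were named after their sequences were seen. The rule to count pathway genes by peaks within 10 kb of their 5' ends was not used, since it needs an hg19 annotation. The members and lists were chosen with earlier results of these data known. The 5' ends came with the choice of members. Python 3.11.15, NumPy 2.4.6, SciPy 1.17.1 and pandas 2.3.3 were used. Alternatives were the peak threshold, placement by interval, merging, the distance to a 5' end and the fold scale.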

Additional observations from a re-analysis of the deposited data

How the results depend on the processing

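Of 16 alternative settings over 6 results, 12 stayed within 1.5 times the reported count or within the counting interval of the reported value, and 4 moved. Placement by interval and merging returned the same 7 peaks, and placement by interval the same highest folds. The settings re-used the same peaks, so this tally is a description and no test of the results. Member peaks numbered 7, of which 4 had a −log10 q of 10 or more and 3 had a fold of 5 or more. Peaks within 10 kb of the 5' ends of GPR19, CDKN1B, HBP1 and CCNG2 numbered 5, and 3 within 1 kb. The windows held 24.9 peaks per Mb, 7.50 times the rest of the list, and 16.9 times at a −log10 q of 10 or more; the windows were drawn around known peaks, so this ratio has no test. No paired analysis was possible because the series has 1 FLAG library, and for the same reason no replicate could be left out.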
